A study of Mus musculus with 12 samples.

Results

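The genes described here are 10 genes of neutrophil granules and neutrophil cytosol, measured in sorted mouse premalignant pre-B cells: Mpo, Elane, Prtn3, Ctsg, Ngp, Camp, Ltf, Lcn2, S100a8 and S100a9. They were chosen by name, as every probe on the array whose target symbol is one of the 10, with Elane listed under its older symbol Ela2. The array spells them in capitals (MPO, PRTN3, CTSG, NGP, CAMP, LTF, LCN2, S100A8 and S100A9). That gave 14 of the 45281 probes and 10 of the 28888 symbols on the array. The probes were 4 for Mpo, 2 for Ltf and 1 for each other gene. RNA was hybridised to 12 Illumina bead arrays, on which each probe is carried by many beads and read as a fluorescence intensity. The 6 wildtype arrays hold cells that are wildtype for Smchd1, and the 6 null arrays hold cells homozygous for a genetrap allele of Smchd1, a chromatin protein of the SMC family that takes part in gene silencing. The strain is C57BL/6 throughout. Every sample, wildtype or null, carries the Eµ-Myc transgene, in which an immunoglobulin heavy chain enhancer drives Myc in the B lineage, so the wildtype arrays are not from normal mice. The cells were taken fresh from mice and sorted. The labels do not give the sorting markers, the tissue, the age of the mice or whether each sample is 1 mouse, so the p-values below measure the spread between these samples, which may be partly technical.

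Neutrophils store their antimicrobial proteins in granules that form in sequence while the cell matures in the bone marrow. Primary, or azurophil, granules form first, in promyelocytes, and hold myeloperoxidase and serine proteases. Secondary, or specific, granules form later, in myelocytes and metamyelocytes, and hold lactoferrin, lipocalin and cathelicidin. S100a8 and S100a9 together form calprotectin, a cytosolic protein that is abundant in the mature neutrophil. None of the 10 is a marker of the B lineage, and the comparison of primary with secondary genes on each array asks whether the same arrays are high in early and in late granule genes.

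The 10 genes lie on 6 chromosomes in the mouse. Elane and Prtn3 are next to each other on chromosome 10, and S100a8 and S100a9 are next to each other on chromosome 3, with 0 protein-coding genes between the genes of each pair. Ngp, Camp and Ltf share chromosome 9, where 8 protein-coding genes separate Ngp from Camp and 20 separate Ngp from Ltf. Lcn2 is on chromosome 2, Mpo on chromosome 11 and Ctsg on chromosome 14.

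All 10 genes had an entry among the RefSeq promoters of mouse build GRCm38.p6, and the 250 bases before each start were searched on both strands for short motifs of factors known in granulocyte development. The motif TTNNGNAA, of the C/EBP family, was in the windows of 3 of 4 secondary granule genes, 2 of 2 calprotectin genes and 0 of 4 primary granule genes, against 36.8% of all 32851 promoter windows of the same length. GAGGAA, of PU.1 and other ETS factors, was in 4 of 4 primary, 2 of 4 secondary and 1 of 2 calprotectin genes, against 23.3% of all windows. TGTGGT, of RUNX factors, was in the windows of S100a9 and Ctsg and in 14.0% of all windows. No match overlapped one of another motif in the members' windows, and the window of Camp held none of the 3. A match is a description of these letters and not a binding site. A pair of windows from each granule class is shown, chosen after the matches were counted, to show where matches lie in an early and a late pair. They do not stand for their classes: Camp, not shown, held no match and Lcn2, not shown, held 1 match each of TTNNGNAA and GAGGAA, and no difference between classes of 4 genes was tested. Capitals mark matches of TTNNGNAA or GAGGAA on either strand, so that some read as the reverse complement. Ngp is at chr9:110419558-110419807, Ltf at chr9:111019042-111019291, Mpo at chr11:87793534-87793783 and Elane at chr10:79886062-79886311, all on the plus strand.
Ngp: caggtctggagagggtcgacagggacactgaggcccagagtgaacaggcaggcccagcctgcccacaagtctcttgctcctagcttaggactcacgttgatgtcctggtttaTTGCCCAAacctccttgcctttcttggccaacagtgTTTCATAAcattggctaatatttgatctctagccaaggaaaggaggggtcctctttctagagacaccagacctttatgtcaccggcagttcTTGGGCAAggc
Ltf: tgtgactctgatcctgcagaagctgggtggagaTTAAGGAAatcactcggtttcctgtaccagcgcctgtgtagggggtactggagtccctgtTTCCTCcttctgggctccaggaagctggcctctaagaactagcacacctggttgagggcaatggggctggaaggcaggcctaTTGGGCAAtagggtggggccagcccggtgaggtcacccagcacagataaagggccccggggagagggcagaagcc
Mpo: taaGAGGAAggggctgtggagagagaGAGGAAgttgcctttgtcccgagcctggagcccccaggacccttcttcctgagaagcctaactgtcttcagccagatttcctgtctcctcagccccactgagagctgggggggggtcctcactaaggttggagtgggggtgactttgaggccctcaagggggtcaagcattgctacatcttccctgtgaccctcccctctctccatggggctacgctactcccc
Elane: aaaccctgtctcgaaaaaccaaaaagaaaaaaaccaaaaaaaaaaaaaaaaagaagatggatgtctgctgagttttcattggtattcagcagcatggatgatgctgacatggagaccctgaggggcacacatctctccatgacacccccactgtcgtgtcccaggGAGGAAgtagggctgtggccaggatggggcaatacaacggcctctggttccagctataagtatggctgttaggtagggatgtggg
The Ngp window held 3 matches of TTNNGNAA, which began 138, 102 and 11 bases before the start, and 0 of GAGGAA. In Ltf, TTNNGNAA began 217 and 75 bases before the start and GAGGAA 157 bases before it. Mpo held GAGGAA at 247 and 224 bases before the start, and Elane held it at 85. Neither held TTNNGNAA.

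Levels are log2 intensities after background correction with the negative control probes and quantile normalisation. Between 15396 and 16587 of the probes were detected on each array, and the median normalised level lay between 6.95 and 6.97. Of 13 tested pre-B cell markers the brightest was Cd79b, a part of the pre-B cell receptor. It was at 13.42 ± 0.09 on the wildtype and 13.22 ± 0.31 on the null arrays (SD, n = 6 each). The dimmest was Pax5, at 4.94 ± 0.17 on the wildtype arrays (SD, n = 6), where 4 of 6 detected it. Whether the cells are at the pre-B stage was not tested. Smchd1 was at 9.47 ± 0.14 on the wildtype arrays and at 5.05 ± 0.35 on the null arrays (SD, n = 6 each), and no null array overlapped a wildtype array. One array stood apart in the genes described here. On null 3, all 10 were higher than on any other array, so the members' group differences are given with and without it, and those of other genes where leaving it out turned the sign or moved the value by over 1.5 times. Its Smchd1 level, 4.89, lay within the null range of 4.63 to 5.65, and the number of probes detected on it, 16587, was the highest of the 12. Testing was limited to probes called present, with a detection p below 0.05, by 3 or more of the 12 arrays. Of the 14 probes, 12 were tested, among 17607 in all, and every one of the 10 genes had a tested probe. The fourth Mpo probe was detected on 0 wildtype and 2 null arrays, and the second Ltf probe on 0 wildtype and 1 null array. On null 3 these untested probes stood at 8.44 and 8.15.

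**Figure D1:**
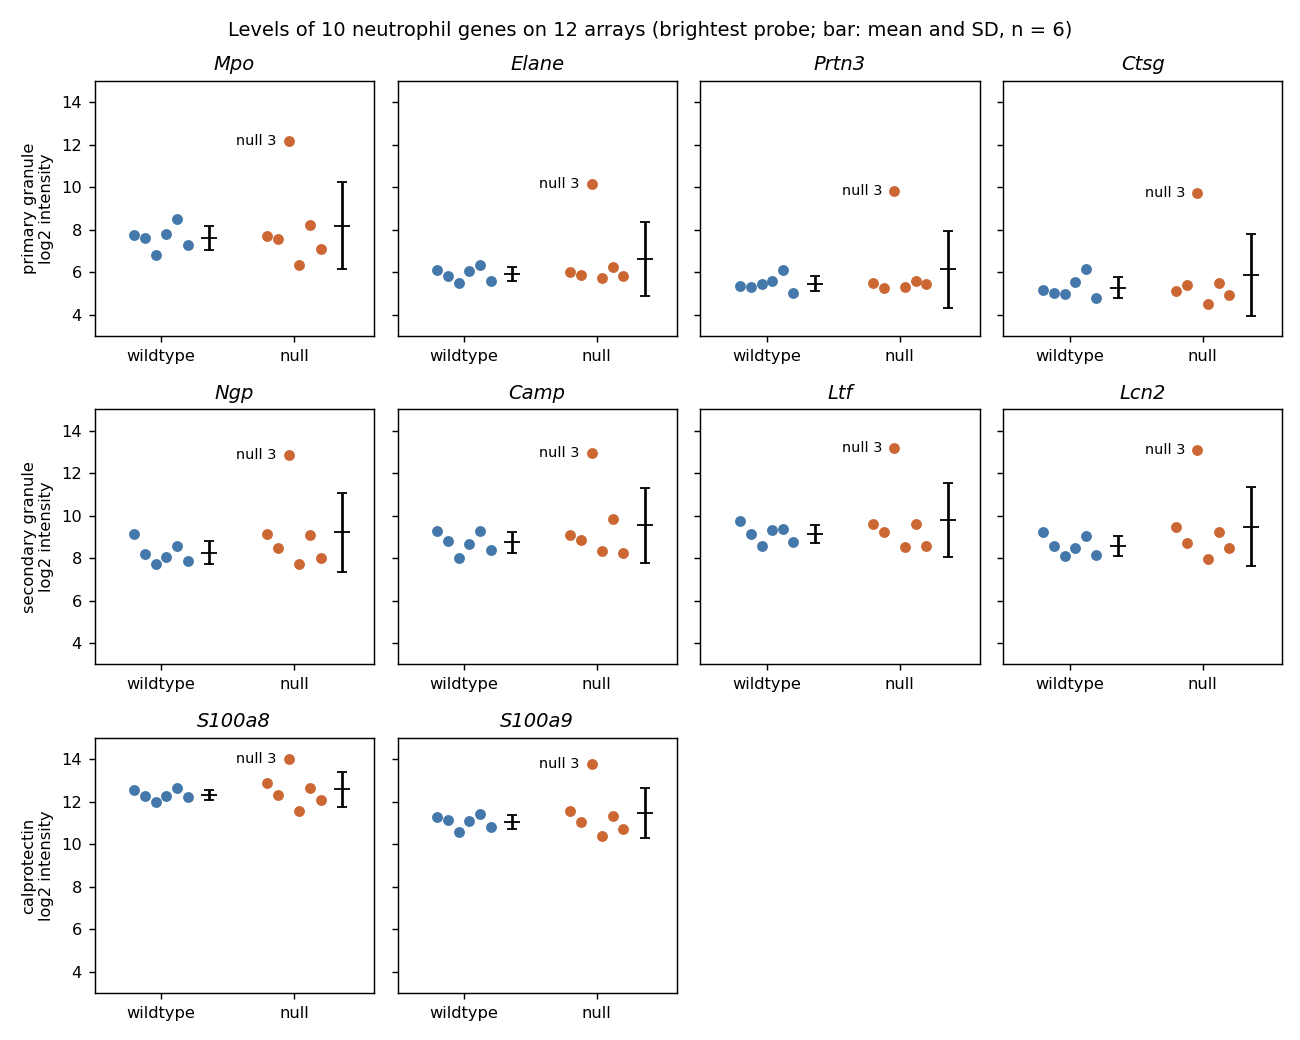
Log2 intensity of the brightest probe of each of the 10 genes (vertical axis) on 6 wildtype arrays (blue) and 6 null arrays (orange), 1 point an array in order of replicate number, with the mean and SD of each group beside it. The array null 3 is the highest point in every panel, and the other 5 null arrays lie among or near the wildtype arrays.

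Detection differed among the primary granule genes: Ctsg was detected on 4 of 6 wildtype and 4 of 6 null arrays, and the third Mpo probe on 2 of 6 in each group, while Elane, Prtn3 and the brighter Mpo probes were detected on all 12. Mpo encodes myeloperoxidase, which makes hypochlorous acid. Its brightest probe ran from 6.80 through a median of 7.69 to 8.48 on the wildtype arrays and from 6.32 through 7.65 to 12.16 on the null arrays. The null arrays other than null 3 lay between 6.32 and 8.23, with null 4 below the wildtype range and the others inside it. The group means were 7.62 ± 0.56 and 8.19 ± 2.05 (SD, n = 6 each), a fitted log2 difference of 0.57 with a standard error of 0.75 (limma adjusted p = 0.73). Without null 3 the sign turned, to a difference of -0.23 (limma adjusted p = 0.78).

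The other primary granule members are serine proteases. Elane, neutrophil elastase, ran from 5.50 through a median of 5.94 to 6.34 on the wildtype arrays and from 5.73 through 5.94 to 10.14 on the null arrays. Apart from null 3, every null array was inside the wildtype range. Its log2 difference was 0.73 with a standard error of 0.62 (limma adjusted p = 0.57), and 0.03 without null 3 (limma adjusted p = 0.95). Prtn3, proteinase 3, lay between 5.03 and 6.12 with a median of 5.39 on the wildtype arrays, and between 5.25 and 9.83 with a median of 5.46 on the null arrays. Here too the other null arrays, up to 5.57, fell inside the wildtype range. The difference of 0.68, with a standard error of 0.65 (limma adjusted p = 0.61), became -0.06 without null 3 (limma adjusted p = 0.89). Ctsg, cathepsin G, lay between 4.78 and 6.17 with a median of 5.10 on the wildtype arrays, and between 4.51 and 9.74 with a median of 5.27 on the null arrays. The lowest was null 4, where it was not detected, and the highest wildtype array was wildtype 5. For Ctsg the difference of 0.60, with a standard error of 0.70 (limma adjusted p = 0.69), became -0.18 without null 3 (limma adjusted p = 0.76).

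The secondary granule genes were detected on all 12 arrays. Ngp, neutrophilic granule protein, a member of the cystatin superfamily, ran from 7.71 through a median of 8.13 to 9.16 on the wildtype arrays and from 7.73 through 8.78 to 12.87 on the null arrays. The highest wildtype array, wildtype 1, and the next null array, null 1 at 9.13, were almost level. Of the 10 genes, Ngp had the largest fitted difference, 0.96 with a standard error of 0.69 (limma adjusted p = 0.48). It was 0.23 without null 3 (limma adjusted p = 0.75). Camp encodes the cathelicidin precursor of an antimicrobial peptide. It lay between 8.02 and 9.29 with a median of 8.74 on the wildtype arrays, and between 8.24 and 12.97 with a median of 8.95 on the null arrays. Null 5, at 9.86, was also above every wildtype array. The difference for Camp was 0.81 with a standard error of 0.65 (limma adjusted p = 0.53), and 0.13 without null 3 (limma adjusted p = 0.87).

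Ltf encodes lactoferrin, which binds iron. It ran from 8.58 through a median of 9.23 to 9.74 on the wildtype arrays and from 8.51 through 9.43 to 13.19 on the null arrays. Except for null 3, no null array passed wildtype 1. The difference was 0.64 with a standard error of 0.63 (limma adjusted p = 0.62), and -0.04 without null 3 (limma adjusted p = 0.96). Lcn2 encodes lipocalin 2, which binds bacterial siderophores and so keeps iron from bacteria. It lay between 8.09 and 9.24 with a median of 8.53 on the wildtype arrays, and between 7.95 and 13.10 with a median of 8.98 on the null arrays. Null 1 at 9.47 and null 5 at 9.25 were also above the highest wildtype array, and null 4 was below the lowest. Its difference was 0.89 with a standard error of 0.67 (limma adjusted p = 0.51), and 0.17 without null 3 (limma adjusted p = 0.81).

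The calprotectin genes encode calcium-binding proteins that also chelate zinc and manganese. S100a8 ran from 11.97 through a median of 12.27 to 12.67 on the wildtype arrays and from 11.56 through 12.49 to 14.01 on the null arrays. Null 1, at 12.86, was also above all wildtype arrays, and null 4 was below all of them. S100a9 lay between 10.55 and 11.40 with a median of 11.12 on the wildtype arrays, and between 10.39 and 13.76 with a median of 11.19 on the null arrays. As for S100a8, null 3 and null 1 were above the wildtype range and null 4 below it. The differences were 0.26 with a standard error of 0.31 for S100a8 (limma adjusted p = 0.69) and 0.42 with a standard error of 0.44 for S100a9 (limma adjusted p = 0.64). Without null 3 both were -0.03 (limma adjusted p = 0.97 and 0.96).

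None of the 10 genes passed the test of null against wildtype cells. Of the 12 tested member probes, 0 passed limma's adjusted p of 0.05 in either direction and 0 had an unadjusted p under 0.05, where 1.22% of all 17607 tested probes passed and 18.1% had an unadjusted p under 0.05. Without null 3, the members again gave 0 of 12 in both counts, against 0.75% and 15.8% of all tested probes. An exact two-sided permutation test of the difference of group means gave p-values from 0.27 for Ngp to 0.73 for the third Mpo probe, and on mean ranks from 0.39 for Lcn2 to 1.0. The median fitted difference was 0.66 over the 12 member probes and -0.04 over all tested probes, and without null 3 it was -0.03 over both. A test with this spread does not show that the groups are equal: the primary and secondary genes had standard errors of 0.62 to 0.75 beside differences of 0.57 to 0.96.

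**Figure D2:**
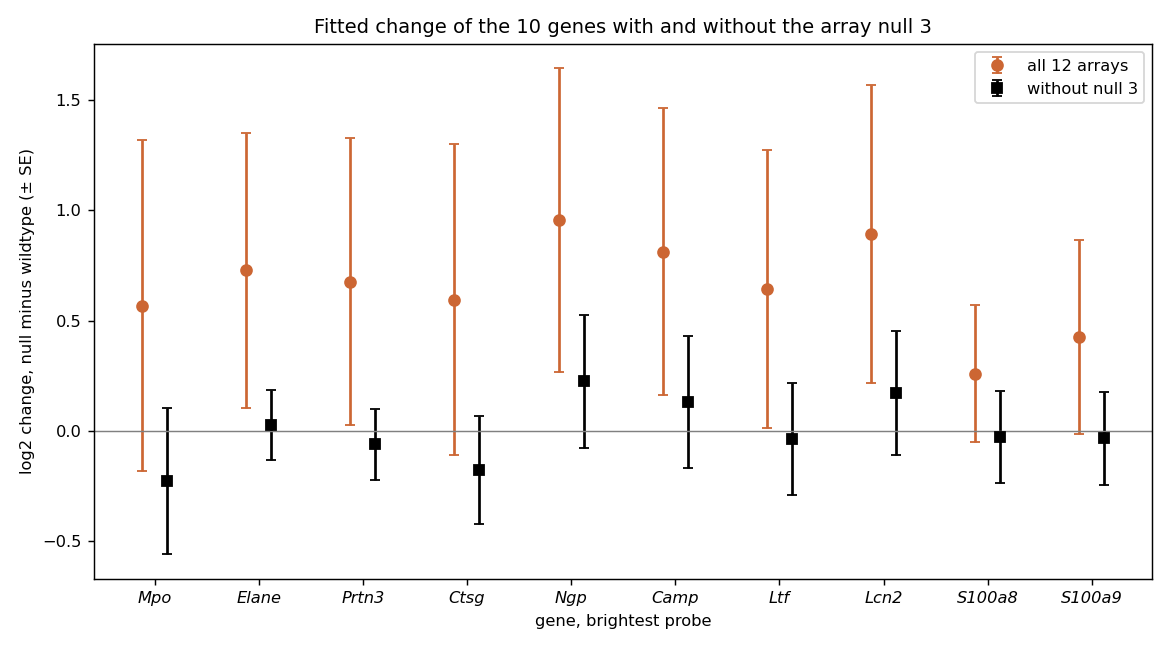
Fitted log2 difference, null minus wildtype, of the brightest probe of each gene (horizontal axis) with its standard error, from all 12 arrays (orange circles) and without null 3 (black squares). With all arrays the differences lie between 0.26 and 0.96, and without null 3 between -0.23 and 0.23.

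Each BeadChip, the slide that carries 6 of the arrays, held 3 null and 3 wildtype arrays, so that the difference could be read within each. On BeadChip 2, which held null 1, null 2 and null 3, the differences of the 12 member probes ran from 0.69 for S100a8 to 1.99 for Ngp. On BeadChip 1, which held null 4, null 5 and null 6, they ran from -0.25 for Ltf to 0.11 for Camp. With null 3 left out of BeadChip 2, an alternative chosen after seeing the data with 2 null and 3 wildtype arrays, its differences ran from -0.23 for Ctsg to 0.64 for Ngp, below 0 for all 6 primary probes and above 0 for the 4 secondary and the 2 calprotectin probes, with limma adjusted p of 0.41 for Ngp and 0.57 for Lcn2. Neither slide gave a member that passed limma's adjusted p of 0.05, where 0.0682% of all probes passed on BeadChip 1 and 0.244% on BeadChip 2. With the BeadChip as a block the members again gave 0 calls, against 1.73% of all probes, and with the replicate numbers as a block 0 calls, against 0.591%.

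On the array null 3, all 10 genes stood above the wildtype arrays. In normalised intensity relative to the wildtype mean of the same probe, which holds an added offset of 16 and so understates ratios of dim probes, the secondary members were 16.4 to 24.4 times as high and the primary members 18.8 to 23.3 times as high, and the calprotectin genes were 3.22 times as high for S100a8 and 6.56 times as high for S100a9. These are values of 1 array, with no replicate and no test. The ratios depend on the treatment of background, since the primary probes were close to it on the other arrays: without background correction the mean log2 excess was 3.24 for the primary and 4.07 for the secondary genes. No probe of that array read above 28564.1 in raw intensity, where S100a8 read 23535.5. Whether the signal of so bright a probe was limited was not tested, and the ratio of S100a8 is not set against those of the dimmer genes. On the log2 scale Ngp stood 4.61 above its wildtype mean, Mpo 4.54, Lcn2 4.50, Ctsg 4.47, Prtn3 4.36, Elane 4.23, Camp 4.23 and Ltf 4.04, and the SD of the 6 wildtype arrays for these genes was 0.33 to 0.56. The gap to the next highest of the 12 arrays was 3.57 to 3.80 for the primary genes, 3.11 to 3.71 for the secondary genes, and 1.15 for S100a8 and 2.19 for S100a9. The raw wildtype values of S100a8 were 3089.4 to 6775.0.

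Few other probes behaved in this way. Null 3 was the highest of the 12 arrays for 10 of 10 members, where this held for 4.78% of all tested probes. It stood at least 1 log2 unit above the wildtype mean for 10 of 10 members and for 2.73% of all tested probes. For 10 of 10 members it stood at least 1 log2 unit above the highest of the other 11 arrays, which held for 0.596% of all tested probes. By size of the excess on null 3 over the wildtype mean, the second Mpo probe ranked 2 of 17607, Ngp 6, Mpo 9, Lcn2 12, Ctsg 14, Prtn3 20, Elane 25, Camp 26 and Ltf 36. S100a9 ranked 107 and S100a8 249. The median excess was 4.30 over the 12 member probes and -0.06 over all tested probes, of which 95% lay between -0.65 and 1.05. Because the samples are bulk RNA, more cells of a type and more RNA per cell cannot be told apart here.

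For the comparison of early with late granule genes, each gene was expressed as its log2 deviation from its own wildtype mean, and the 4 primary and the 4 secondary genes were averaged on each array. On null 3 the secondary mean was 4.34 and the primary mean 4.40, so the secondary genes exceeded the primary genes by -0.06. On the wildtype arrays, where this difference averages 0 by construction, its SD was 0.35, and it ran from -0.33 on wildtype 5 to 0.64 on wildtype 1. Without background correction the difference on null 3 was 0.84, beside a wildtype SD of 0.29, so the balance of the 2 classes on that array depends on the correction and no order is read from it.

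The other arrays were not all alike in the balance of the 2 classes. On null 1 the secondary mean stood at 0.64 and the primary mean at 0.02, and on wildtype 1 at 0.67 and 0.03. On null 5 the secondary genes stood at 0.77 and the primary genes at 0.32. Relative to the wildtype means, these 3 arrays were higher in late than in early granule genes. For null 5 the difference was 0.45, and 0.25 with median scaling, beside wildtype SDs of 0.35 and 0.37. Wildtype 5 had the opposite order, with a secondary mean of 0.39 and a primary mean of 0.71, and wildtype 4 stood at -0.05 and 0.17. Without background correction the means of wildtype 5 were 0.32 and 0.35, a difference of -0.037 in place of -0.33, while that of null 1 was 0.53, of wildtype 1 0.55 and of null 5 0.48. Both classes were low on null 4, at -0.55 and -0.60, on wildtype 3, at -0.59 and -0.39, on wildtype 6, at -0.40 and -0.40, and on null 6, at -0.36 and -0.24. Null 2 and wildtype 2 lay within 0.13 of the wildtype mean in both. Over the groups the difference of the classes was 0.18 ± 0.29 on the null arrays (SD, n = 6) and 0.23 ± 0.30 without null 3 (SD, n = 5), against a wildtype SD of 0.35, and the groups overlapped.

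**Figure D3:**
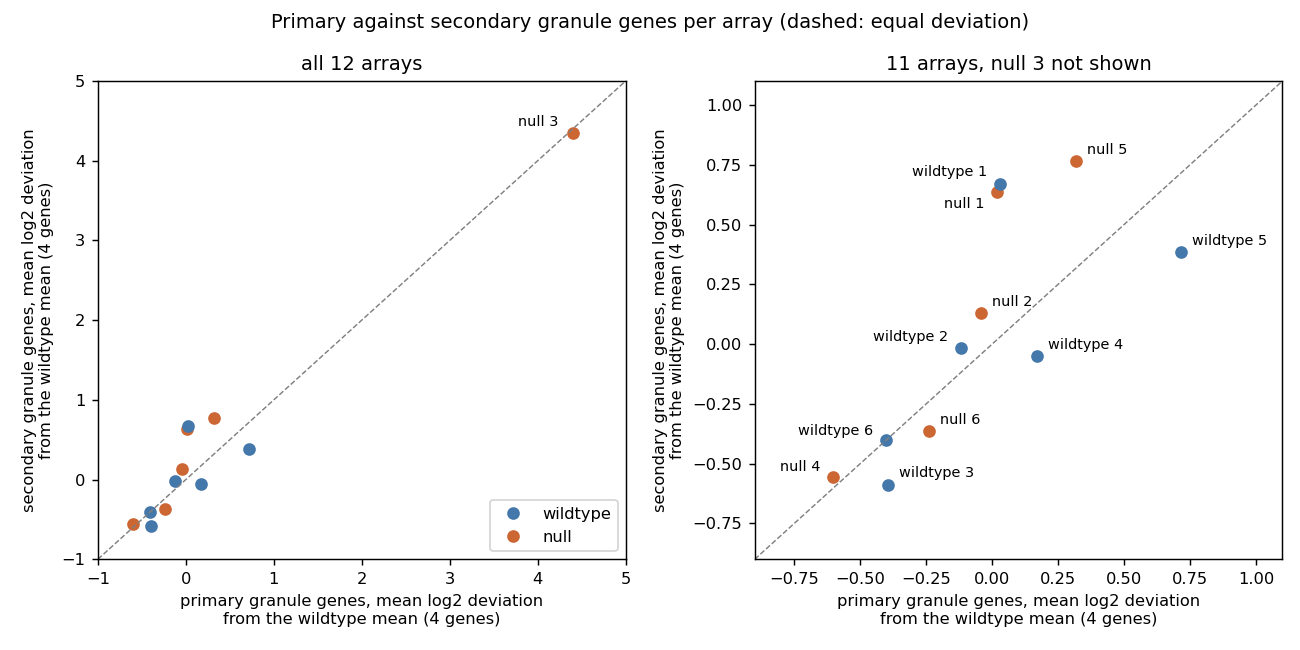
Mean log2 deviation from the wildtype mean of the 4 secondary granule genes (vertical) against that of the 4 primary granule genes (horizontal), 1 point an array, for all 12 arrays (left) and for the 11 without null 3 over a narrower range (right). With background correction, as drawn, null 3 lies near the line of equal deviation at 4.40 and 4.34, while wildtype 1, null 1 and null 5 lie above that line and wildtype 5 below it.

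The members of a class tended to be high on the same arrays. Among the wildtype arrays, wildtype 1 was highest for all 4 secondary genes and wildtype 5 for all 4 primary genes and for S100a8 and S100a9. Wildtype 3 was lowest for 8 of the 10, and wildtype 6 for Prtn3 and Ctsg. Among the null arrays other than null 3, null 5 was highest for the 4 primary genes, Camp and Ltf, and null 1 for Ngp, Lcn2, S100a8 and S100a9. Null 4 was lowest for 8 of the 10, with Prtn3 lowest on null 2 and Camp lowest on null 6. The calprotectin mean was 0.53 on null 1, 0.32 on null 5, -0.71 on null 4 and -0.42 on wildtype 3. A member value rests on 20 to 73 beads, with a median of 39, and the standard error of the bead mean was 2.1% to 6.9% of the raw intensity.

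Genes whose pattern over the arrays was most like the mean of the 4 secondary genes were, over all 12 arrays, Chil4 (Pearson r = 0.993, Spearman rho = 0.944), C3, Ltb4r1, Lyz2, Lyz1, Ffar2, Cd177 and Retnlg (r = 0.980, rho = 0.825). Those most like the 4 primary genes were AA467197 (r = 0.990, rho = 0.762), Ccl9, Chil3, Lyz2, Ltb4r1, F13a1, Tgfbi and Mmp9 (r = 0.980, rho = 0.727). Ltb4r1 and Lyz2 were the 2 genes in both sets of 8. All of these coefficients have n = 12, and on null 3 the 14 named genes stood 2.46 to 4.63 above their wildtype means. F13a1, with an r of 0.982, had a rho of 0.469. Without null 3, over 11 arrays, Chil4 (r = 0.953, rho = 0.927), C3, Ltb4r1 and Lyz2 were still the first 4 for the secondary genes, followed by S100a11, Lyz1, Pgap3 and Tmco6. For the primary genes the first was Slc30a5 (r = 0.920, rho = 0.864), followed by Slc8a1, Npsr1, Mus81, AA467197, Zfp52, Tnfrsf22 and C3, and C3 was the 1 gene in both sets. Over the 6 wildtype arrays alone the sets were different again: Pvr (r = 0.991, rho = 1.0), Chil3, Usp14, Vps37c, Iftap, Tfam, Lair1 and Mrpl35 for the secondary genes and Cyp4v3 (r = 0.992, rho = 0.943), Kat8, Pcmt1, Ptpn6, Apoe, Gbp2, a target listed as SCL0001602.1_506 and Egln1 for the primary genes, with 0 in common. The arrays share slides and normalisation, and with 17607 probes and few arrays high coefficients are easily reached.

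Other genes of the neutrophil program were read from lists. Of 9 other primary granule and promyelocyte genes on the array, 6 were tested and none passed in either direction. On null 3 the genes for lysozyme, Lyz2 and Lyz1, stood 3.94 and 3.36 above their wildtype means, while Ctsc, whose product activates granule proteases, was at -0.15 and Srgn, the proteoglycan core of granules, at 0.08. The 4 of smallest p were Nkg7 (log2 difference 1.12, limma adjusted p = 0.13), Cst7 (0.43, limma adjusted p = 0.20), Lyz2 (0.76, limma adjusted p = 0.51) and Srgn (0.12, limma adjusted p = 0.54), and Nkg7 is also on the list of T and NK cell markers. Without null 3 the difference of Lyz2 was 0.13 (limma adjusted p = 0.82). Cst7 was detected on 1 wildtype and 4 null arrays, so its wildtype values were mostly near background. Ms4a3, Bpi and Mcpt8 were not tested.

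Of 19 other secondary granule genes, 13 were tested, 1 rose and none fell. The one that rose was Cyba, a subunit of the phagocyte NADPH oxidase found in many cell types, at 11.75 ± 0.14 on the wildtype and 12.24 ± 0.21 on the null arrays (SD, n = 6 each), a difference of 0.49 with a standard error of 0.11 (limma adjusted p = 0.044). Without null 3 its difference was 0.46 (limma adjusted p = 0.090), and it was highest on null 5. With 1 array left out at a time it passed in 2 of 12 fits, those without null 2 and without null 4. Null 3 was the highest array for 11 of the 13, with a median excess of 3.70 over the wildtype mean. Stfa1, a stefin, stood 4.66 above, Pglyrp1, a peptidoglycan-binding protein, 4.58, Hp, haptoglobin, 4.56, and Cd177, a neutrophil surface protein, 4.49, and Olfm4, of specific granules, 3.56. The lowest of the 13 on null 3 were Ceacam1 at 0.33, Serpinb1a at 0.39 and Cyba at 0.66. For Olfm4 (0.95, limma adjusted p = 0.30), Stfa1 (1.22, limma adjusted p = 0.32) and Pglyrp1 (1.01, limma adjusted p = 0.42) the group difference did not pass, and without null 3 it was 0.42, 0.53 and 0.30 (limma adjusted p = 0.18, 0.21 and 0.47). Olfm4 was detected on 0 wildtype and 3 null arrays and Stfa1 on 1 and 4. They entered the test through the null arrays, and their wildtype values were near background.

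The genes of gelatinase granules and mature neutrophils gave 11 tested of 18, with 0 that rose or fell and 0 with an unadjusted p under 0.05. Null 3 was highest for 9 of the 11, with a median excess of 3.03. Fpr2, a formyl peptide receptor, stood 4.18 above the wildtype mean, Retnlg 4.01 and Mmp9, the gelatinase, 3.50, whereas Trem1 was at 0.08. Among the group differences of smallest p were those of Il1b (0.67, limma adjusted p = 0.43), Wfdc21 (0.33, limma adjusted p = 0.50) and Slpi (0.49, limma adjusted p = 0.53). Without null 3 these were 0.19, 0.11 and 0.056 (limma adjusted p = 0.59, 0.80 and 0.87). Il1b was detected on 2 wildtype and 5 null arrays and Wfdc21 on 1 and 4, so their wildtype values were mostly near background. Of the transcription factors of granulopoiesis 6 of 8 were tested, and 1 stood more than 1 log2 unit above its wildtype mean on null 3. Null 3 was highest for 2: Cebpb stood 2.48 above its wildtype mean and Spi1, which encodes PU.1, 0.26. Gfi1 was at -0.14, Cebpd at -0.23, Runx1 at -0.20 and Myb at -0.29, and Cebpa and Cebpe were not tested. The group difference of Cebpb was 1.00 (limma adjusted p = 0.12), of Myb -0.39 (limma adjusted p = 0.16), of Runx1 -0.27 (limma adjusted p = 0.26) and of Gfi1 -0.39 (limma adjusted p = 0.36).

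Markers of other cell types also differed on null 3, and their part in the result was not tested. The 4 tested markers of eosinophils, basophils and mast cells, of 10 on the array, were all highest on null 3. Prg2, the major basic protein of eosinophil granules, stood 4.81 above its wildtype mean, Prss34, a basophil and mast cell protease, 4.24, Ear2, an eosinophil ribonuclease, 4.19, and Fcer1a, of the high-affinity IgE receptor, 1.55. Their mean level lay between 5.29 and 5.90 on the wildtype arrays and between 4.96 and 9.37 on the null arrays, and Epx, Cpa3, Mcpt8, Gata1, Gata2 and Ms4a2 were not tested. Their group differences were 0.67 for Prss34, 0.25 for Fcer1a, 0.76 for Prg2 and 0.62 for Ear2 (limma adjusted p = 0.60, 0.62, 0.63 and 0.66). Without null 3 all 4 were below 0, at -0.040, -0.0066, -0.052 and -0.092 (limma adjusted p = 0.91 to 0.98).

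Of 17 monocyte and macrophage markers 6 were tested, with a mean level of 6.66 to 7.15 on the wildtype and 6.86 to 8.38 on the null arrays. Null 3 was highest for 2 of the 6, F13a1 and Csf1r, which stood 3.36 and 0.44 above their wildtype means there. On null 3 Cd68 stood 2.30 above its wildtype mean, Mpeg1 1.06 and Ly86 0.60, and Ctss was at -0.0071. These other genes were highest on null 5. The mean deviation of the list was 1.29 on null 3 and 1.52 on null 5. Adgre1, Cd14, Ccr2, Fcgr1, C1qa, C1qb and C1qc were among the 11 not tested. The differences of smallest p were those of Cd68 (1.58, limma adjusted p = 0.18), Ly86 (0.53, limma adjusted p = 0.24), Mpeg1 (0.90, limma adjusted p = 0.30) and Csf1r (0.15, limma adjusted p = 0.50), which was 0.091 without null 3. Csf1r was detected on 0 wildtype and 3 null arrays, so it entered the test through the null arrays and its wildtype values were near background.

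Erythroid markers gave 6 tested of 11, with a mean level of 6.29 to 7.14 on the wildtype and 5.74 to 8.01 on the null arrays. On null 3, Slc4a1, the anion exchanger of red cells, stood 2.51 above its wildtype mean, and the globin genes Hba-a1 and Hbb-b1 2.22 and 1.72, all above the other arrays. Over all arrays none passed: Hbb-b1 differed by -0.72 (limma adjusted p = 0.49), Car2 by 0.88 (limma adjusted p = 0.50), Epor by 0.14 (limma adjusted p = 0.57) and Hba-a1 by -0.61 (limma adjusted p = 0.63). Without null 3, Hbb-b1 and Hba-a1 differed by -1.21 and -1.17 (limma adjusted p = 0.13 and 0.18), and Slc4a1 fell by 0.84 on the log2 scale (limma adjusted p = 0.012). With all arrays the difference of Slc4a1 was -0.285 (limma adjusted p = 0.80). It was detected on 6 wildtype arrays and 1 null array, so its null values were mostly near background. The 6 megakaryocyte markers on the array were not tested. Of 7 progenitor markers 3 were tested: Meis1 (0.62, limma adjusted p = 0.077), Ly6a (2.33, limma adjusted p = 0.17) and Mecom (-0.09, limma adjusted p = 0.79, and -0.047 without null 3), with a mean level of 6.41 to 7.11 on the wildtype and 6.84 to 8.73 on the null arrays.

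Lymphoid and plasmacytoid dendritic cell markers were high on more than one null array. The 10 tested of 12 T and NK cell markers had a mean deviation of 1.53 on null 5, 1.24 on null 3 and 0.94 on null 6, with mean levels of 5.58 to 5.80 on the wildtype and 5.86 to 7.24 on the null arrays. The 4 of smallest p were Thy1 (1.64, limma adjusted p = 0.063), Cd2 (0.47, limma adjusted p = 0.092), Nkg7 (1.12, limma adjusted p = 0.13) and Klrb1c (0.36, limma adjusted p = 0.14). Klrb1c was detected on 0 wildtype and 5 null arrays, so it entered the test through the null arrays and its wildtype values were near background. For the 9 tested of 10 plasmacytoid dendritic cell markers the mean deviation was 2.33 on null 5, 1.57 on null 6 and 0.87 on null 3, with mean levels of 8.25 to 9.20 and 8.56 to 10.98, and Bst2 (1.25, limma adjusted p = 0.14), Klk1 (1.53, limma adjusted p = 0.17), Cox6a2 (1.03, limma adjusted p = 0.20) and Irf8 (0.67, limma adjusted p = 0.24) had the smallest p. The 5 tested of 7 plasma cell markers deviated on average by 0.32 on null 3 and 0.77 on null 5, with mean levels of 9.27 to 9.41 and 9.44 to 10.13. They were led by Fkbp11 (0.78, limma adjusted p = 0.067), Mzb1 (0.22, limma adjusted p = 0.15), Irf4 (-0.51, limma adjusted p = 0.16) and Xbp1 (0.61, limma adjusted p = 0.20).

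Of 15 pre-B cell markers on the array 13 were tested and none passed. Their mean deviation was -0.25 on null 3, -1.18 on null 5, 0.41 on null 4 and between -0.19 and 0.05 on the wildtype arrays, with mean levels of 8.75 to 8.98 on the wildtype and 7.75 to 9.34 on the null arrays. Il7r, the interleukin 7 receptor (-0.99, limma adjusted p = 0.10), Rag1, of the recombinase (-0.92, limma adjusted p = 0.12), Blnk (-0.25, limma adjusted p = 0.20) and Ebf1 (-0.40, limma adjusted p = 0.33) had the smallest p, and on null 3 they deviated by -0.80, -0.65, -0.24 and -0.51, below every wildtype array. The mean of the list on null 3 was also below the wildtype range. So were those of null 1, null 2 and null 6, at -0.46, -0.37 and -0.37, and that of null 5, all lower than null 3. On null 3, Igll1, Vpreb1 and Ptprc stood 0.31, 0.19 and 0.10 above their wildtype means. The rest of the 13 tested markers stood below theirs. Over all lists without a member, 155 genes were on the lists and 91 were tested, of which 1 rose and 0 fell, or 1.1%, against 1.22% of all tested probes. Of the 91, 28, or 30.8%, had an unadjusted p under 0.05, against 18.1% of all tested probes. The median difference of the 91 was 0.39, and 0.091 without null 3, against -0.04 and -0.03 over all tested probes.

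**Figure D4:**
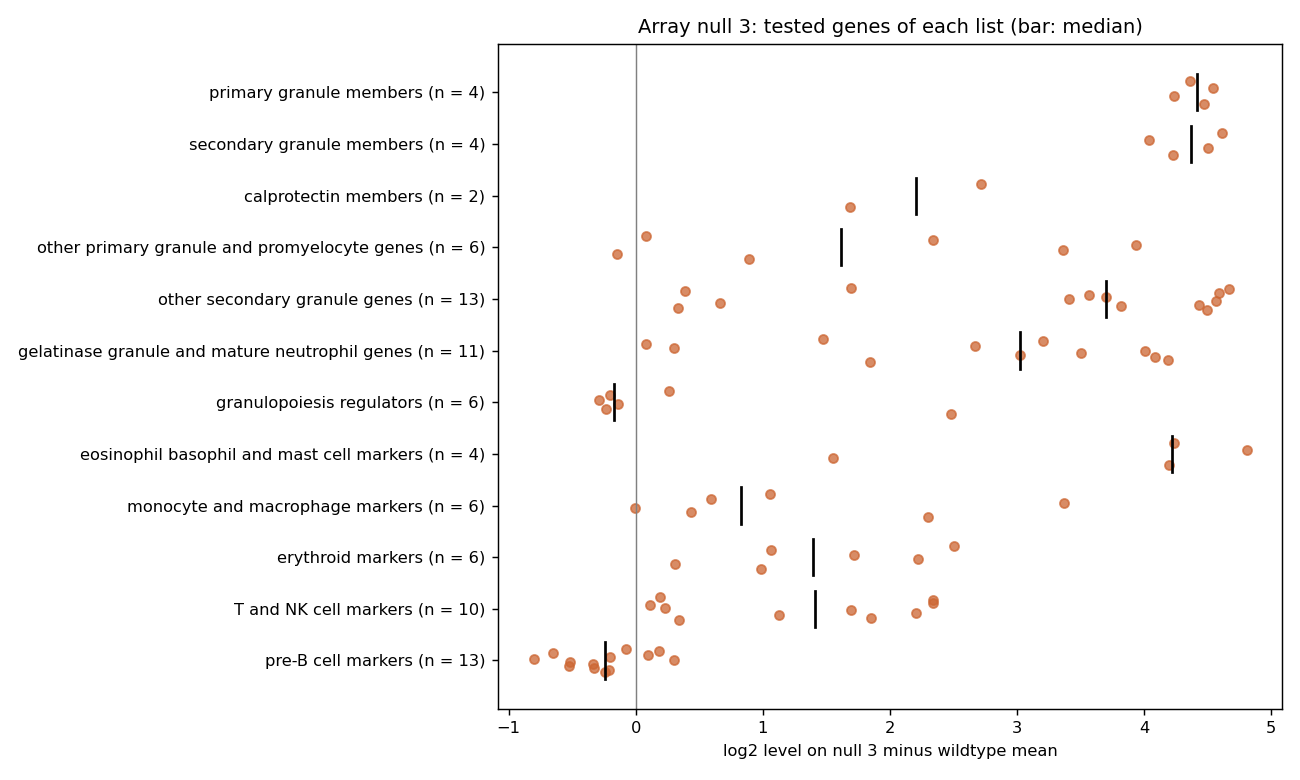
Log2 level on the array null 3 minus the wildtype mean (horizontal axis) for the tested genes of 12 lists, 1 point a gene, with the median of each list as a bar. Primary and secondary granule members lie between 4.04 and 4.61, the 4 tested eosinophil, basophil and mast cell markers between 1.55 and 4.81, and the pre-B markers have a median of -0.24.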

How the data were processed

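RNA of 12 samples, 6 wildtype and 6 null, grouped by title, was measured on Illumina mouse bead arrays. The deposited raw intensity per probe, with the SD and number of its beads and a detection score given as a fraction, was exported by GenomeStudio 1.8.0 without normalisation, per the file headers. A deposited table gives the same intensities with detection p-values. The authors' processed log2 values came from limma 3.12.1 in R 2.15.1, per the submitters' processing notes and a deposited readme. No genome build is named for these files.

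From the raw intensities, limma 3.58.1 (neqc with 936 negative control probes, offset 16, in R 4.3.3) gave log2 values that differ from the authors' by at most 5e-09. Probes with a detection p under 0.05 on at least 3 of 12 arrays were fitted with lmFit and eBayes, null against wildtype, with Benjamini-Hochberg adjustment over all 17607. The fit was tested on simulated data. A gene was read from its probe of highest mean. Promoters were RefSeq's, and symbols were updated through RefSeq's synonyms.

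Named were all member probes, up to 4 genes of smallest p in each other list, any list gene that passed, the 8 genes most like each granule class, and examples from the lists chosen after their values were seen. A few list genes are not reported here by name. The members and lists were chosen with earlier results of these data known. Alternatives were normalisation, background correction, the authors' table, filters, blocks, single slides, weights, prior, each array left out and exact permutation tests. The precision of a value is limited by the number of arrays.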

Additional observations from a re-analysis of the deposited data

Results flagged for a closer look

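In 13 of 32 groups of 6 arrays tested for a sample far from the others, the gap between the outermost array and its neighbour was larger than Dixon's 95% critical value allows, and in all 13 the array was null 3, as the highest of the null arrays. Chance marks about 1 group in 20, and the groups here are not independent, since the same arrays and related genes enter all of them. For the primary granule genes the values on null 3 were 12.16 for Mpo, 11.15 for Mpo probe 2, 8.10 for Mpo probe 3, 10.14 for Elane, 9.83 for Prtn3 and 9.74 for Ctsg. The secondary granule genes stood at 12.87 for Ngp, 12.97 for Camp, 13.19 for Ltf and 13.10 for Lcn2, and S100a9 stood at 13.76. Its mean deviation from the wildtype mean was 4.34 for the secondary and 4.40 for the primary granule genes. S100a8 was highest on null 3 too, but within the critical value. No wildtype array was marked for any member.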

How the results depend on the processing

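No member probe passed limma's adjusted p of 0.05 under any of the alternatives run, where the lowest adjusted p was 0.35, and 297 of 322 recomputed differences kept their sign. The sign turned in 23, and in 2 the difference was 0. Part of the 322 could not turn: the authors' table, the filters, the 2 blocks, the robust and trend prior and the permutation of means leave a difference at its main value. The share that kept its sign is therefore no measure of robustness. On BeadChip 1 alone the log2 differences were -0.070 for Ctsg, -0.081 for Lcn2, -0.25 for Ltf, -0.17 for Mpo, -0.021 for Mpo probe 2, -0.077 for Ngp, -0.16 for S100a8 and -0.17 for S100a9. On BeadChip 2 without its null 3 array (an alternative added after the data were seen) they were -0.23 for Ctsg, -0.049 for Elane, -0.20 for Mpo, -0.067 for Mpo probe 2, -0.21 for Mpo probe 3 and -0.22 for Prtn3. With 1 array left out at a time the lowest value of each turned probe came without null 3, and the ranges were -0.18 to 0.87 for Ctsg, -0.036 to 0.90 for Ltf, -0.23 to 0.94 for Mpo, -0.068 to 1.02 for Mpo probe 2, -0.078 to 0.62 for Mpo probe 3, -0.059 to 0.86 for Prtn3, -0.025 to 0.46 for S100a8 and -0.033 to 0.64 for S100a9. On mean ranks the difference was -0.33 for Mpo and 0 for Mpo probe 3 and Ctsg. On null 3 the primary mean was 3.24 without background correction in place of 4.40, and the secondary genes then exceeded the primary genes by 0.84 in place of -0.06. With median scaling the calprotectin mean was 2.56 in place of 2.20, where the median of all probes on null 3 moved from -0.06 to 0.15. The cause was not tested. The count of genes that passed in the other lists, 1, became 0 with median scaling and with no filter on dim probes, and 0 to 5 with 1 array left out.

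Over all probes 94 rose and 121 fell, against 59 and 33 with median scaling, 49 and 52 with no filter, 190 and 190 with array weights, 7 and 5 on BeadChip 1, 33 and 10 on BeadChip 2 and 57 and 31 there with null 3 left out. They were 58 and 74 without null 3, 54 and 52 without wildtype 1, 46 and 42 without wildtype 2, 40 and 28 without wildtype 3, 41 and 29 without wildtype 4, and 40 and 28 without wildtype 6. The rest were 99 and 98 without null 4, 70 and 75 without null 6 and 74 and 82 without wildtype 5. More probes passed without null 1 (119 and 159), null 2 (130 and 189) or null 5 (136 and 121), and with the BeadChip as a block (128 and 176). Deviations of null and wildtype arrays with the same replicate number correlated from -0.29 to 0.08. The arrays of each such pair lay on different BeadChips, so a slide difference would lower these correlations. They therefore cannot tell whether the replicate numbers pair the samples. With the replicate block, Ngp had a difference of 0.96 (limma adjusted p = 0.50), 0 member probes passed, and 64 probes rose and 40 fell in all, or 0.591%. Ctsg and Mpo probe 3 were near background outside null 3, which limits what their differences there can show. Elane, at 5.50 to 6.34 there, and Prtn3, at 5.03 to 6.12, were detected on all 12 arrays but were also close to background, and share this limit.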
